A study of Ovis aries with 9 samples.

Results

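The 10 genes described here are immediate early genes and the NAB corepressors of EGR factors. They were followed in the ovaries of 9 ewes, out of 27174 gene rows in the count table. They were the NR4A nuclear receptors NR4A1, NR4A2 and NR4A3, the zinc finger factors EGR1, EGR2 and EGR3, their corepressors NAB1 and NAB2, and the AP-1 subunits FOS and JUNB. The 10 genes were found by their symbols. They were chosen by measured values of these same libraries, because NAB2 and NR4A1 were lower in Han than in Dorset ewes. For the 10 genes, Han against Dorset is therefore described without a p-value, and their tests are given only between the Han genotypes. Counts over all genes tested include the 10 genes.

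Whole ovaries of adult ewes were measured by RNA-Seq, 1 library per ewe. D4, D5 and D6 were Dorset ewes. Small Tail Han ewes made up both other groups, W1, W2 and W4 with the genotype FecBBFecBB (Han BB) and W6, W7 and W8 with FecB+FecB+ (Han ++). Per the methods, every ewe received progestagen sponges and pregnant mare serum gonadotropin and was sampled after the spontaneous estrus of the following cycle, so the controls carried this treatment too. Sampling fell in a window of several hours after estrus was detected, and the methods give no time for each ewe. The Dorset ewes are labelled wild type, without a named gene, and a FecB test is described for the Han ewes only. Han ++ and Han BB shared a breed, and Dorset and Han BB differed in both labels. All ewes came from 1 farm, and each group had 3 ewes.

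Immediate early genes are switched on within minutes of a signal at the cell surface, without new protein synthesis, and their transcripts are short-lived. In the ovary the surge of luteinizing hormone induces NR4A, EGR and AP-1 genes in follicle cells. NAB1 and NAB2 bind the EGR proteins and repress their targets, and NAB2 is itself induced by EGR factors, which closes a feedback loop. In these bulk samples, fewer cells of a type and less RNA per cell cannot be told apart.

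NAB2 was the member that the study also assayed by quantitative PCR, so its primers are shown as the sequences that mark the transcript. They are printed 5′ to 3′, and no base is capitalised because no position within them is singled out. Their positions in the genome were not analysed here.
NAB2 forward primer: gagagagcacctacctgtc
NAB2 reverse primer: gctgctggatttcagagt
The forward primer has 19 bases with 57.9% G and C, and the reverse primer has 18 bases with 50.0%.

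Total counts per library ranged from 10803913 in W8 to 20992535 in W7, and the biological coefficient of variation between ewes was 0.472. Some libraries stood apart. D4 held 14.9% of its reads on a single row, and the first principal component, with 41.3% of the variance, placed D6 (103) and W4 (107) at one end and D4 (-118) and W8 (-74.9) at the other. D6 and W4 were of different breeds yet had a Spearman correlation of 0.978 across genes. No pair of libraries agreed within sampling noise, with a chi-square per gene of at least 43. Markers of granulosa, luteal, theca, oocyte, endothelial, smooth muscle, leukocyte and ciliated oviduct cells had summed levels whose ranges overlapped between Dorset and each Han group. FOXL2, CYP19A1, KDR, TEK and CFAP43 had no row of that symbol and were not used.

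EGR1, EGR2 and JUNB each had a second row in the table. The row EGR1 held 1 read in D6 and 0 in the other 8 libraries, and the row EGR1.1 held 89 to 1423 reads. The values given for EGR1 are those of EGR1.1, although nothing in the table says which transcript or locus either row is. Adding both rows left its Han to Dorset log2 fold change at -1.43. The second rows of EGR2 and JUNB held 0 to 5 reads each and were not tested. After the filter on low counts all 10 genes were tested, EGR1 through its second row. Levels are given in CPM, the reads of a gene scaled to the total of its library and edgeR's TMM factor, and they are compared between ewes but not between genes, because no gene lengths were used.

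NR4A1 was 6.45-fold lower in Han than in Dorset ewes, the widest of the 10 differences. NAB2 was 1.72-fold lower, with little spread within Dorset. In both genes every Han ewe was below every Dorset ewe, a pattern held by 1.93% of all genes tested. Their lower Han levels were the reason for choosing the genes. The other 8 genes overlapped between Dorset and Han.

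NR4A1, also known as Nur77, is an orphan nuclear receptor and a fast responder to gonadotropin in the ovary. It stood at 92.9 CPM in D4, 125 in D5 and 37.9 in D6. In Han BB it stood at 9.21 CPM in W1, 11.1 in W2 and 18.4 in W4. In Han ++ it stood at 6.58 CPM in W6, 11.2 in W7 and 23.1 in W8. The Dorset levels lay above all 6 Han levels, and D6, the lowest Dorset ewe, was the one whose whole profile resembled W4. The group means were 85.3 ± 44.1 CPM (SD, n = 3) in Dorset, 12.9 ± 4.84 in Han BB and 13.6 ± 8.54 in Han ++. The log2 fold change was -2.72 (SE 0.55) for Han BB and -2.65 (SE 0.548) for Han ++ against the same Dorset ewes. It stayed between -3.23 and -2.29 for both Han groups together under every alternative run, including -3.23 with D6 and W4 left out and -2.29 without D5. NR4A1 reads numbered 138 to 2775 per library, so counting error was small beside the spread between ewes.

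NR4A2 (Nurr1) and NR4A3 (Nor1) are the other receptors of this family, and they bind the same response element as NR4A1. NR4A2 stood at 26.3, 11.3 and 6.26 CPM in D4, D5 and D6, at 6.27, 4.90 and 13.1 in W1, W2 and W4, and at 6.06, 6.29 and 6.45 in W6, W7 and W8. D6 lay among the Han ewes, and W4 lay above D5. The Han to Dorset log2 fold change of NR4A2 was -1.03 (SE 0.436) and -0.304 without D4. NR4A3 stood at 17.9, 7.26 and 1.73 CPM in D4, D5 and D6, at 0.902, 4.83 and 3.68 in W1, W2 and W4, and at 2.0, 5.25 and 2.95 in W6, W7 and W8. D6 was lower than 5 of the Han ewes, and the Dorset levels spread 10.3-fold. The NR4A3 log2 fold change was -1.45 (SE 0.654), and -0.47 without D4. In D4, the ewe with the highest NR4A2 and NR4A3, the summed luteal markers stood at 1720 CPM (271 in D5, 504 in D6), the theca markers at 130 CPM (41.8 in D5, 47.8 in D6) and the leukocyte markers at 678 CPM (182 in D5, 264 in D6). W2, the ewe with the lowest NR4A2, had luteal markers at 1690 CPM, close to D4, and W7 and W8 had 1490 and 1320 CPM. Theca markers reached 83.3 CPM in W7, and leukocyte markers reached 660 CPM in W1, the ewe with the lowest NR4A3. Smooth muscle markers were lower in D4, at 4280 CPM (9220 in D5, 9400 in D6). Granulosa, oocyte and ciliated oviduct markers were also lower in D4 than in D5 and D6. The part of these cells in the NR4A2 and NR4A3 levels was not tested.

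The share of NR4A1 among the reads of the 3 NR4A rows shows how far the family moved together, since gene length and library size cancel between ewes. It was 67.8% in D4 (95% Wilson interval 65.3 to 70.2), 87.1% in D5 (85.9 to 88.2) and 82.6% in D6 (79.9 to 85.0). In Han BB it was 56.2% in W1 (51.0 to 61.4), 53.4% in W2 (47.7 to 58.9) and 52.3% in W4 (48.0 to 56.5). In Han ++ it was 45% in W6 (39.5 to 50.5), 49.2% in W7 (44.9 to 53.6) and 71.1% in W8 (66.2 to 75.6). Han BB lay below all Dorset ewes, while W8 of Han ++ lay above D4, with intervals that overlapped. The means were 79.2% ± 10.1 in Dorset, 54.0% ± 2.04 in Han BB and 55.1% ± 14.0 in Han ++ (SD, n = 3). These intervals, like all count limits here, cover counting error only. The lower Han level of NR4A1, a reason for choosing the genes, also lowers its share, so the shares are a description only.

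**Figure D1:**
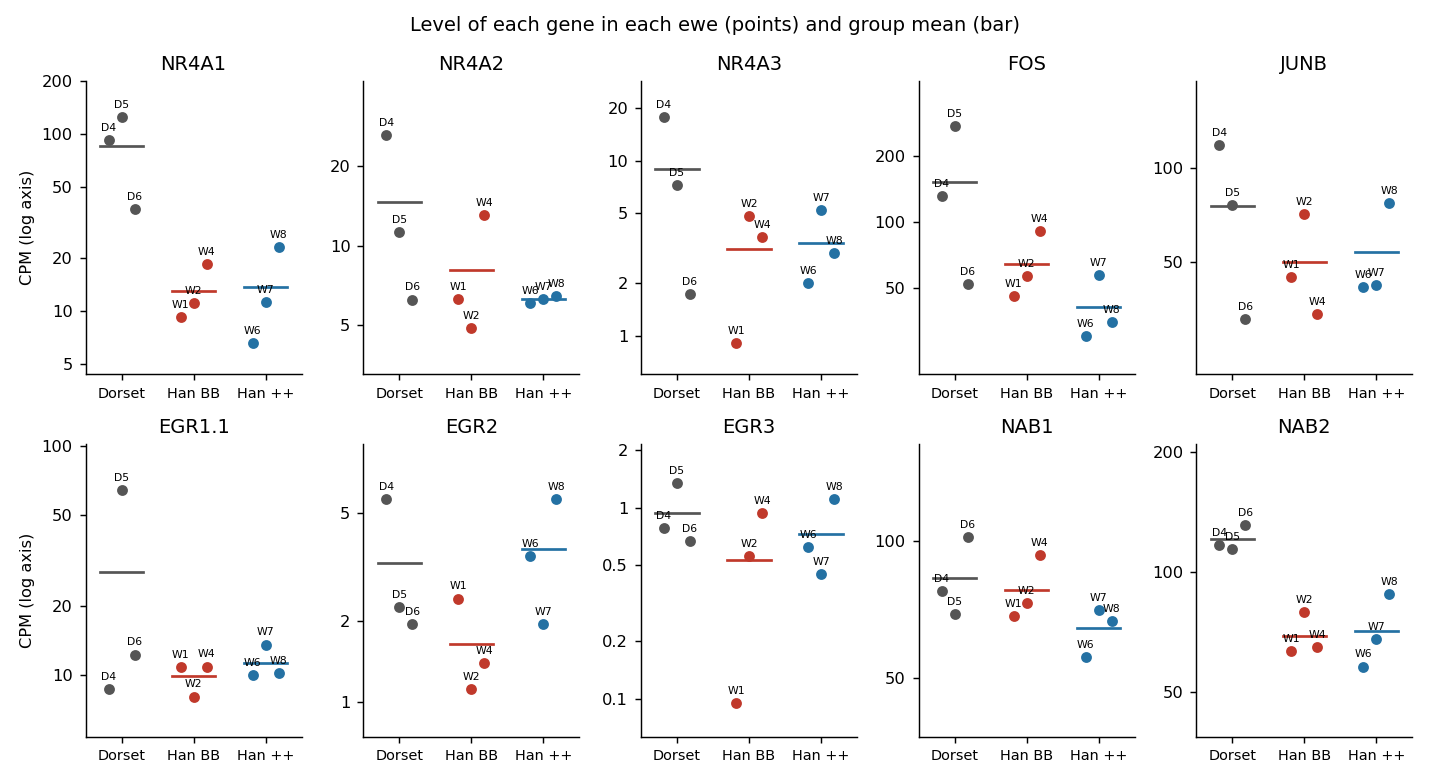
Level of each of the 10 genes in CPM (log axes, 1 scale per gene) for the ewes of the 3 groups, with each point an ewe named by its library and each bar a group mean. For NR4A1 and NAB2 all 6 Han points lie below the 3 Dorset points, for EGR1.1 only D5 lies apart, and for the other genes the groups overlap.

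NAB2, the corepressor that is itself an EGR target, stood at 117, 114 and 131 CPM in D4, D5 and D6. In Han BB it stood at 63.3 CPM in W1, 79.2 in W2 and 64.8 in W4, and in Han ++ at 58.0 in W6, 68.0 in W7 and 87.9 in W8. The Dorset ewes lay within 1.15-fold of each other, and the nearest Han ewe was W8. The means were 121 ± 9.12 CPM in Dorset, 69.1 ± 8.76 in Han BB and 71.3 ± 15.2 in Han ++ (SD, n = 3). NAB2 had a log2 fold change of -0.81 (SE 0.254) in Han BB and -0.76 (SE 0.254) in Han ++, both against the same Dorset ewes. For both Han groups together it was -0.78 (SE 0.213), and it stayed between -0.853 and -0.705 under all alternatives, so no single library carried it. In the annotation of a later sheep assembly (ARS-UI_Ramb_v3.0), NAB2 overlaps its neighbour STAT6, and the strand setting of the counting is not given. The STAT6 row had a Han to Dorset log2 fold change of 0.00 (SE 0.276).

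NAB1, the corepressor related to NAB2, did not share this pattern. It stood at 77.5, 69.0 and 102 CPM in D4, D5 and D6, at 68.5, 72.9 and 92.9 in W1, W2 and W4, and at 55.7, 70.6 and 66.6 in W6, W7 and W8. Dorset and Han levels overlapped, and D6 and W4 were the highest of their groups. The Han to Dorset log2 fold change of NAB1 was -0.23 (SE 0.223), and it was -0.0383 without D6 and -0.341 without D5.

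NAB2 as a share of NAB1 and NAB2 reads was 60.2% in D4 (95% Wilson interval 58.1 to 62.4), 62.3% in D5 (60.8 to 63.8) and 56.2% in D6 (54.7 to 57.7). In Han BB the share was 48.0% in W1 (46.2 to 49.9), 52.0% in W2 (49.9 to 54.1) and 41.1% in W4 (39.1 to 43.1). In Han ++ it was 51.0% in W6 (49.0 to 53.0), 49.1% in W7 (47.3 to 50.8) and 56.9% in W8 (54.5 to 59.2). Every Han ewe but W8 had a smaller NAB2 share than every Dorset ewe, and W8 lay slightly above D6 with intervals that overlapped. The lower Han level of NAB2, a reason for choosing the genes, also lowers this share, so the shares are a description only. The means were 59.6% ± 3.08 in Dorset, 47.1% ± 5.54 in Han BB and 52.3% ± 4.07 in Han ++ (SD, n = 3).

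**Figure D2:**
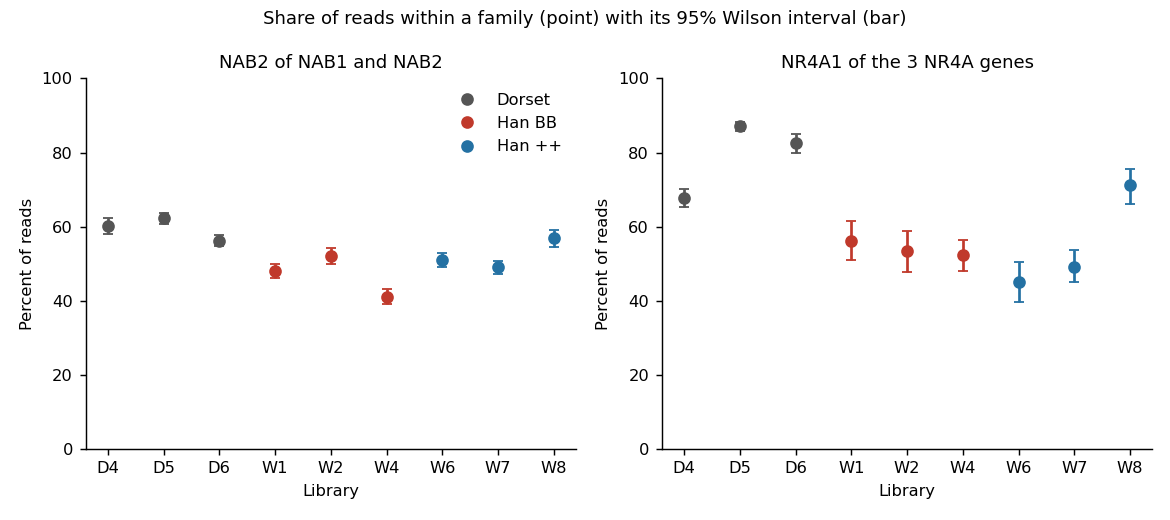
Percent of reads on NAB2 among NAB1 and NAB2 (left) and on NR4A1 among the 3 NR4A genes (right) in each library, with points coloured by group and bars for the 95% Wilson interval. Both shares are smaller in the 3 Han BB libraries than in the 3 Dorset libraries, while W8 of Han ++ reaches 56.9% and 71.1%, above the lowest Dorset library. The lower Han levels of NAB2 and NR4A1 were the reason for choosing the genes.

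EGR1, which is induced in granulosa cells by luteinizing hormone, stood at 8.66, 64.1 and 12.3 CPM in D4, D5 and D6. In Han BB it stood at 10.8, 8.06 and 10.9 CPM in W1, W2 and W4, and in Han ++ at 9.97, 13.6 and 10.2 in W6, W7 and W8. D5 alone was high, and D4 was lower than 5 of the Han ewes. The Han to Dorset log2 fold change was -1.43 (SE 0.512), and without D5 it was 0.0119, so the difference rested on that ewe. EGR2 and EGR3 are related factors that recognise the same DNA motif. EGR2 stood at 5.64, 2.25 and 1.95 CPM in D4, D5 and D6, at 2.42, 1.12 and 1.40 in W1, W2 and W4, and at 3.48, 1.95 and 5.62 in W6, W7 and W8. D4 and W8 were the high ewes, and the Han to Dorset log2 fold change of EGR2 was -0.40 (SE 0.508), and 0.221 without D4. EGR3 was close to the limit of these libraries, with 2 to 30 reads and 0.0949 to 1.35 CPM. W1 with 2 reads was below the 3 reads that a count of 0 allows, and the EGR3 log2 fold change was -0.61 (SE 0.806). It was -0.223 without D5, -0.359 without W1, -0.974 without W4 and -1.6 in limma.

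FOS and JUNB are subunits of the AP-1 dimers. FOS stood at 131, 276 and 51.9 CPM in D4, D5 and D6, at 45.7, 56.8 and 90.9 in W1, W2 and W4, and at 30.2, 57.1 and 34.7 in W6, W7 and W8. D5 was the highest ewe, as for EGR1, and D6 lay within the Han range. The Han to Dorset log2 fold change of FOS was -1.58 (SE 0.436), and -0.82 without D5. JUNB stood at 118, 75.9 and 33.1 CPM in D4, D5 and D6, at 45, 71.2 and 34.2 in W1, W2 and W4, and at 41.9, 42.4 and 77.3 in W6, W7 and W8. D6 was the lowest of the 9 ewes and D4 the highest, and the JUNB log2 fold change was -0.54 (SE 0.389), and -0.075 without D4.

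**Figure D3:**
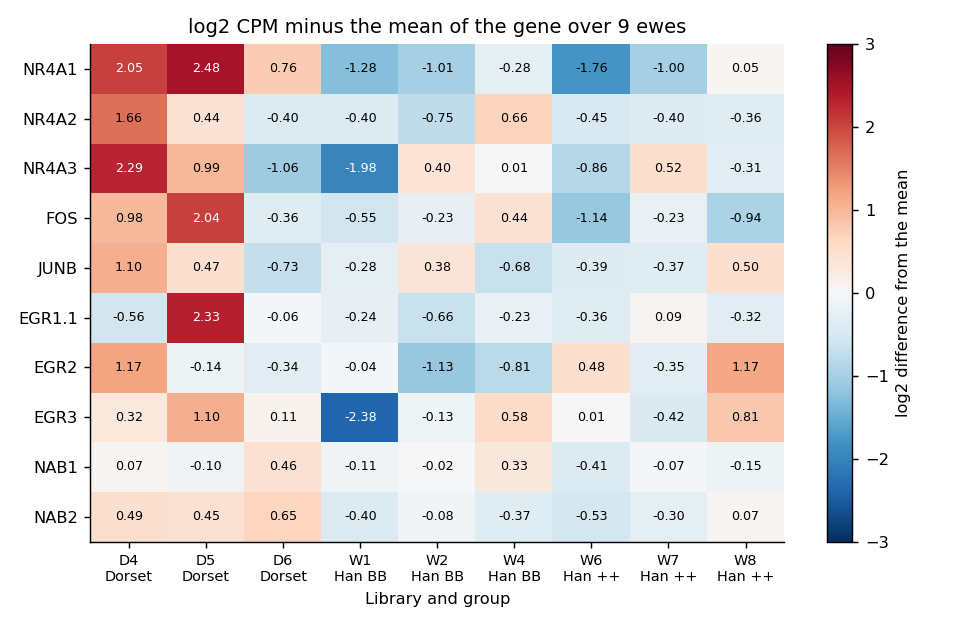
Heat map of log2 CPM minus the mean of each gene over the 9 ewes, with genes in rows, libraries with their group in columns, and red above and blue below the mean. NR4A1 and NAB2 are above their means in all 3 Dorset libraries, FOS (2.04) and EGR1.1 (2.33) are high in D5, NR4A3 (2.29), NR4A2 (1.66) and JUNB (1.1) are high in D4, and most members of D6 are near or below 0.

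The Dorset ewes thus did not share 1 profile over the 10 genes. D5 was the highest Dorset ewe for NR4A1, FOS, EGR1 and EGR3, and D4 was the highest for NR4A2, NR4A3, JUNB and EGR2. D6 was the lowest Dorset ewe for NR4A1, NR4A2, NR4A3, FOS, JUNB, EGR2 and EGR3 but the highest for NAB1 and NAB2. Within Dorset the highest level exceeded the lowest 3.3-fold for NR4A1, 5.31-fold for FOS and 7.41-fold for EGR1, and 1.48-fold for NAB1. NR4A2 had the narrowest range of the 10 genes in Han ++, where its highest level exceeded the lowest 1.06-fold. That range rests on 70 to 139 reads per library and lies within counting error.

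By counts over the 10 genes, the log2 fold change was below 0 in 10 for Han BB against Dorset, with a median of -0.907, where 50.6% of all 16871 genes tested were below 0. It was below 0 in 9 for Han ++ against Dorset, EGR2 (0.17, SE 0.592) being the exception, with a median of -0.988, where 55.9% of all genes were below 0. The sign of EGR2 in Han ++ changed under 4 alternatives and that of NAB1 in Han BB under 2. Both counts share the Dorset ewes and the contrast that chose the genes. Over all genes, calls by edgeR (adjusted p under 0.05 and a change past 1.5-fold in either direction) numbered 0 (0%) in Han BB against Dorset and 1 (0.00593%) in Han ++ against Dorset. That gene, ROPN1L, is no member and is named because it was the sole call. At an unadjusted p under 0.05 the shares of all genes were 4.99% (842 genes) and 5.27% (889 genes).

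NR4A1 and NAB2 were the 2 members whose Han BB ewes all lay below Dorset, a pattern held by 4.52% of all genes. They were also the 2 members whose Han ++ ewes all lay below Dorset, held by 5.59% of all genes, and the 2 with all 6 Han ewes below Dorset, held by 1.93%. The reverse pattern, all 6 Han ewes above Dorset, was held by 0 members and by 1.83% of all genes. Since the genes were chosen on this contrast, these shares are given as background alone.

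Between the Han genotypes, which the choice of genes did not use, none of the 10 genes differed by the test. In edgeR's quasi-likelihood test the Benjamini-Hochberg adjusted p was 0.999 for every one of them, and 0 of all genes (0%) were called. At an unadjusted p under 0.05 there were 332 genes (1.97%), and 0 of the 10 members among them. DESeq2 and limma each called 2 genes, and 545 and 1225 genes respectively had an unadjusted p below 0.05. Over all alternatives the lowest adjusted p of a member was 0.742 (EGR3 in limma). The Han BB and Han ++ ewes overlapped for all 10 genes, while 9.38% of all genes had these groups apart in either direction.

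The intervals of these Han BB to Han ++ differences tell what the 3 ewes per genotype could resolve. For NAB2 the log2 fold change was -0.05 with a 95% interval of -0.601 to 0.511, and for NAB1 it was 0.28 (-0.291 to 0.852). NR4A1 had -0.07 (-1.22 to 1.08), so that neither a fold of the size seen against Dorset nor its reverse lay inside the interval. NR4A2 had 0.37 (-0.782 to 1.52), and NR4A3 had -0.13 (-1.87 to 1.61). The NAB genes were the most closely bounded and NR4A3 and EGR3 (-0.45, -2.57 to 1.67) the least. EGR1 had -0.18 (-1.55 to 1.18), FOS had 0.66 (-0.496 to 1.82) and JUNB had -0.10 (-1.11 to 0.907). EGR2 had the difference farthest from 0, at -1.14 (SE 0.602, interval -2.47 to 0.189) with an unadjusted p of 0.0857 by edgeR, and it was lower in Han BB (1.65 ± 0.683 CPM) than in Han ++ (3.68 ± 1.84 CPM, SD, n = 3). Its sign held under all 17 alternatives, from -1.51 to -0.651, and W1 lay above W7. The sign of the NR4A1, NR4A2, NR4A3, EGR3, NAB2 and JUNB differences changed with single libraries left out.

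**Figure D4:**
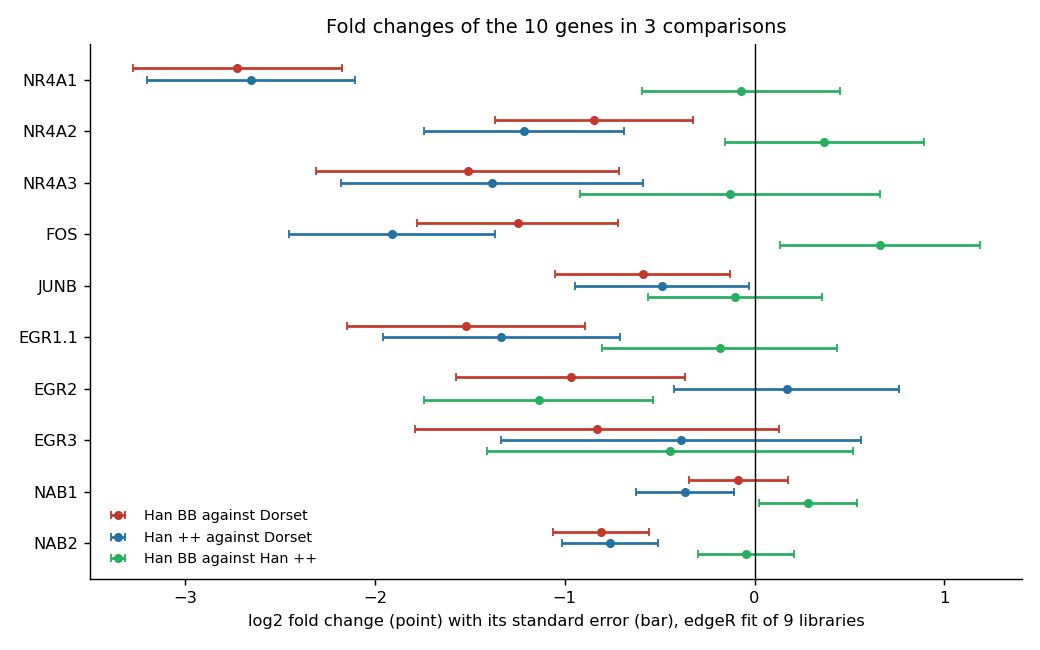
Log2 fold changes of the 10 genes from the edgeR fit (points) with their standard errors (bars) for Han BB against Dorset, Han ++ against Dorset and Han BB against Han ++, and 0 as no difference. NR4A1 is the farthest from 0 in both comparisons with Dorset (-2.72 and -2.65), NAB2 has short bars near -0.8, and the values between the Han genotypes lie on both sides of 0.

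Whether the genes moved together from ewe to ewe was asked with deviations of log2 CPM from the group mean, because Dorset and Han formed separate clusters for NR4A1 and NAB2. Over the 45 pairs of genes, 29 had a within-group Pearson r above 0. In an exact two-sided permutation test over the 216 within-group pairings, 0 pairs had an unadjusted p under 0.05, and the lowest Benjamini-Hochberg adjusted p was 0.869. These pairings allow no p below 0.00463, which for a lone pair among 45 is an adjusted p of 0.208, so a single pair could not pass. NR4A1 and FOS had a within-group r of 0.713 (exact permutation p = 0.088, adjusted p = 0.869), and NR4A1 and EGR3 had 0.61 (exact permutation p = 0.0509, adjusted p = 0.869). NR4A3 followed FOS (0.668), JUNB (0.657) and NR4A2 (0.649) with similar values. For NAB2 and NR4A1, whose lower Han levels were the reason for choosing the genes, the within-group r was 0.325 (exact permutation p = 0.532, adjusted p = 0.869).

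EGR1 and FOS had a within-group r of 0.683 (exact permutation p = 0.431, adjusted p = 0.869). Over all 9 ewes, which takes in the difference between the breeds, their Pearson r was 0.704 (exact permutation p = 0.0762, adjusted p = 0.381). Spearman's rho over all 9 ewes was 0.35 (exact permutation p = 0.359, adjusted p = 0.621). Without D5 and W2, the ewes farthest from the median of EGR1, this Pearson r was -0.25, and without D5 alone it was -0.205, so the relation rested on D5. EGR1 and NAB2, a factor and its induced corepressor, had a within-group r of -0.234 (exact permutation p = 0.329, adjusted p = 0.869). NAB1 and NAB2 had a within-group r of 0.365 (exact permutation p = 0.329, adjusted p = 0.869).

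**Figure D5:**
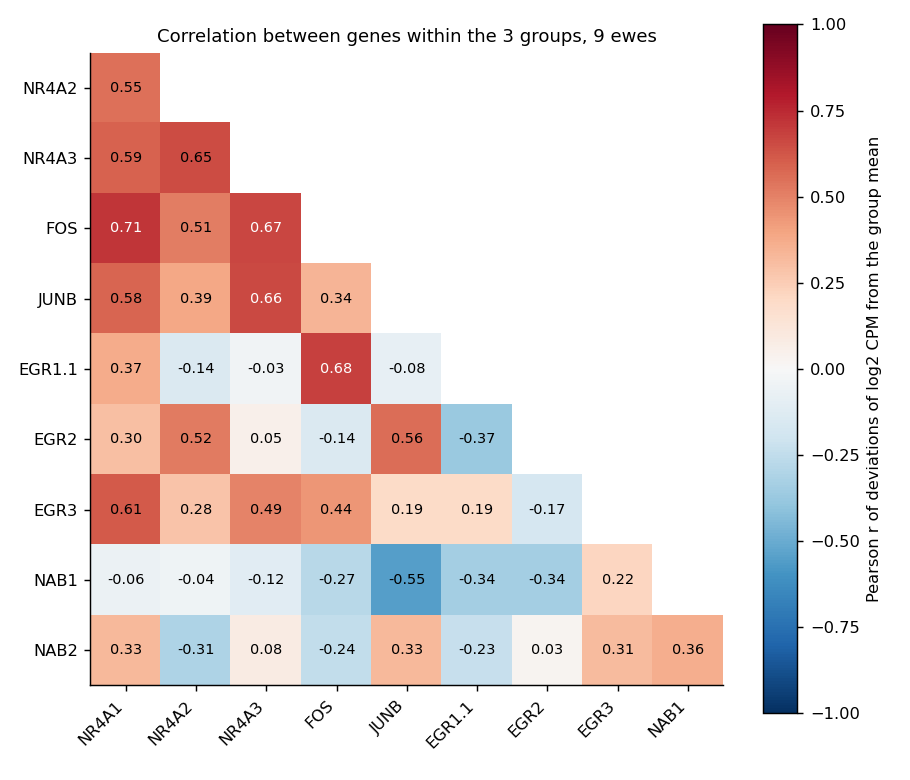
Pearson r between each pair of the 10 genes (45 cells), computed on the deviations of log2 CPM from the group mean over 9 ewes, with red above 0 and blue below 0. The NR4A genes, FOS and JUNB have values above 0 with each other, from 0.336 for FOS and JUNB to 0.713 for NR4A1 and FOS, while NAB1 is below 0 with 7 of the other genes.

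Across all 16871 genes tested, the genes whose log2 CPM over the 9 ewes was most like that of NAB2 were RHOB (r = 0.96), KCTD11 (r = 0.952) and CLK3 (r = 0.939). RHOB, a small GTPase gene that is itself of the immediate early class, stood at 34.9, 35.7 and 35.4 CPM in D4, D5 and D6 and between 17.1 and 24.6 CPM in the 6 Han ewes. The Dorset ewes lay close together for RHOB, as they did for NAB2, and W8 was the highest Han ewe in both. For NR4A1 the closest were FAM65C (r = 0.957), LOC101114265 (r = 0.955) and TLE2 (r = 0.95). For EGR1 they were PPL (r = 0.981), CASC3 (r = 0.96) and LOC101114599 (r = 0.949). These values are maxima over all genes and take in the difference between the breeds, so they are descriptions without a test.

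Other immediate early genes, upstream factors, NAB and NR4A partners, luteinizing hormone induced genes and heat shock genes made up 6 lists of 92 genes. The lists were chosen with earlier results of these data known. Of the 92 genes, 11 had no row of their symbol and 76 were tested. By edgeR 0 were called in each of the 3 comparisons. At an unadjusted p under 0.05, 12 (15.8%) were counted in Han BB against Dorset, 11 of them lower, beside 4.99% of all genes. In Han ++ against Dorset there were 9 (11.8%), 7 of them lower, beside 5.27% of all genes, and in Han BB against Han ++ there were 3 (3.95%), beside 1.97%. DESeq2, run without the filter on low counts, counted 14, 8 and 3 list genes at this level in the same order. Its shares of all 24699 genes with a p-value were 5.4%, 4.63% and 2.21%, a wider set than that of edgeR and limma. Limma counted 18, 12 and 9, beside 11.5%, 9.78% and 7.26% of all genes. The comparisons with Dorset share the Dorset ewes, and single libraries moved all 3 counts. The count for Han BB against Dorset was 8 without D5 or W1. For Han ++ against Dorset it was 6 without D4 or D5, 5 without W1 or W6 and 4 without W2 or W8. Between the genotypes it was 2 without D5 or W4, 5 without W6 and 0 without W7 or W8.

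Among the 19 tested AP-1 and other immediate early transcription factors, 4 were lower at this level in Han BB and 1 in Han ++ against Dorset, with list medians of -0.583 and -0.254 where all genes had -0.00578 and -0.0613. IER2, a nuclear factor of the growth response, stood at 40.8 ± 24.7 CPM in Dorset, 16.5 ± 3.26 in Han BB and 21.9 ± 6.99 in Han ++ (SD, n = 3), with a Han BB to Dorset log2 fold change of -1.30 (SE 0.447, edgeR adjusted p = 0.975). JUND, an AP-1 partner of FOS, had -1.40 (SE 0.502, edgeR adjusted p = 0.975). IER3, a stress-induced survival gene, had -1.05 (SE 0.301, edgeR adjusted p = 0.643) in Han ++ against Dorset. In Han BB against Han ++, 17 of these 19 factors had a log2 fold change below 0, beside 46.6% of all genes. The list median was -0.346 where all genes had 0.0352. NFIL3, a bZIP repressor, was the 1 factor at an unadjusted p under 0.05 there, and it lay on the other side, at 0.57 (SE 0.249, edgeR adjusted p = 0.999). FOSB, a close relative of FOS, was highest in D5 at 3.88 CPM, the ewe with the highest FOS.

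Of the 23 tested feedback and effector genes, 5 were lower in Han BB against Dorset, and 4 were lower and 1 higher in Han ++ against Dorset. The list medians were -0.0793 and -0.354. PPP1R15A, a phosphatase subunit of the stress response also called GADD34, stood at 129 ± 26.7 CPM in Dorset, 56.3 ± 6.55 in Han BB and 78.6 ± 12.5 in Han ++ (SD, n = 3). Its log2 fold changes were -1.19 (SE 0.267, edgeR adjusted p = 0.749) and -0.71 (SE 0.265, adjusted p = 0.874). RHOB had -0.88 (SE 0.247, edgeR adjusted p = 0.927) and -0.77 (SE 0.246, adjusted p = 0.754). TRIB1, a pseudokinase gene, was the higher one, with 1.13 (SE 0.353, edgeR adjusted p = 0.727) in Han ++. GADD45G, a growth arrest gene, was lower in Han BB than in Han ++ by the point estimate, at -1.1 (SE 0.425, edgeR adjusted p = 0.999).

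Upstream of the response stand the kinases and factors that carry the signal to these genes. Of 11 tested kinases and factors 0 were at this level in Han BB against Dorset and 1, higher, in Han ++ against Dorset, and of 5 tested NAB and NR4A partners 0 were in either. Of 8 tested genes that luteinizing hormone induces in the follicle, 1 was higher in Han BB and 1, the protease gene ADAMTS1 at -0.69 (SE 0.308, edgeR adjusted p = 0.943), was lower in Han ++. Between the Han genotypes these 3 lists held 0 genes at this level. The medians of the luteinizing hormone list were 0.216 for Han BB and -0.338 for Han ++ against Dorset. In Han BB against Han ++, 7 of its 8 tested genes had a log2 fold change above 0, with a median of 0.451.

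Heat shock genes, which like immediate early genes can respond to stress of a tissue, were taken as a list of 10. All 10 had a log2 fold change below 0 in Han BB against Dorset (median -0.481), beside 50.6% of all genes. In Han ++ against Dorset 9 did (median -0.435), beside 55.9% of all genes. Both counts share the Dorset ewes. At an unadjusted p under 0.05 were DNAJB1, a cochaperone, at -1.03 (SE 0.235, edgeR adjusted p = 0.749) and HSPA6, an inducible chaperone, at -1.15 (SE 0.363, edgeR adjusted p = 0.968) in Han BB, and DNAJB1 at -0.56 (SE 0.233, edgeR adjusted p = 0.897) in Han ++. BAG3, a partner of these chaperones, had -0.79 (SE 0.33, edgeR adjusted p = 0.999) in Han BB against Han ++. The summed level of the list was 4080 CPM in D4, 5800 in D5 and 7960 in D6 and ranged from 3190 to 6670 CPM in the Han ewes, so the groups overlapped. The inducible HSPA1A was highest in D6 (244 CPM) and W4 (143 CPM), ewes in which NR4A1 was the lowest of its group and the highest of its group, respectively. The part of the heat shock genes in the levels of NR4A1, FOS and NAB2 was not tested.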

How the data were processed

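Per the labels and methods, the authors sequenced ovary RNA of 9 ewes, aligned the reads with TopHat at default settings to Oar_v3.1 (submitters' processing notes) and deposited raw counts of uniquely mapped reads per gene. Which program counted the reads, and with which strand setting, is not given in the sources used here. The labels and methods name different library kits. The 10 members and the gene lists were chosen with earlier results of these data known. Members were matched by symbol, and all 10 also had an entry in the RefSeq table of ARS-UI_Ramb_v3.0, used for names and neighbours only.

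The main test was edgeR (4.0.16, in R 4.3.3), as 1 quasi-likelihood fit of all 9 libraries, group as the only factor, TMM scaling and filterByExpr by group, which left 16871 of 27174 rows. A gene was called when its Benjamini-Hochberg adjusted p was under 0.05 and it changed past 1.5-fold in either direction, thresholds taken from the methods, which used DESeq. The p-values set each difference against the spread between the 3 ewes of each group. That spread was estimated from all 9 libraries, with information shared across genes. Named are all 10 members, up to 6 list genes per comparison with the smallest unadjusted p under 0.05, and the 3 genes most correlated with NAB2, NR4A1 and EGR1. FOSB, HSPA1A and STAT6 were added after their values were seen. Correlations used log2 CPM with a prior count of 0.5 and exact permutations. The tests were run on simulated counts first. Alternatives were DESeq2 1.42.0, limma 3.58.1 with voom quality weights, DESeq2 size factors, no filter, 1 CPM in 3 libraries, only the groups compared, a prior count of 2, a term for or removal of W4 and D6, and leaving out each library. Total counts of 10803913 to 20992535 per library give a floor of 3 reads, or 0.135 to 0.292 CPM. Python 3.11.15 with matplotlib 3.10.9 made the figures.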

Additional observations from a re-analysis of the deposited data

How the results depend on the processing

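The Han to Dorset log2 fold changes of NR4A1 and NAB2 kept their sign under all 16 alternatives. That of EGR1 ranged from -1.85 to 0.0119 with single libraries left out. Genes called in Han BB against Han ++ numbered 2 in DESeq2 and 2 in limma, and 0 without any single library. In Han BB against Dorset they numbered 29 in DESeq2, 2 without the filter, 1 with a term for W4 and D6, 2 with both left out, and 0 to 1 with single libraries left out. In Han ++ against Dorset they numbered 65 in DESeq2, 0 in limma, 11 without the filter, 0 with only the 2 groups, 78 with the term, 22 with both left out, and 0 to 5 with single libraries left out. Members changed sign between the Han genotypes under some alternatives, all without passing the test. In limma the log2 fold changes of Han BB against Han ++ were 0.0124 for NR4A1, -0.0184 for NR4A2, 0.0149 for NAB2 and 0.0858 for JUNB. With the term for W4 and D6 they were 0.0353 for NR4A1, 0.3 for NR4A3, 0.0647 for EGR1 and 0.245 for JUNB, and with both libraries left out -0.17 for NR4A2 and 0.106 for JUNB. With single libraries left out they ranged from -0.411 to 0.529 for NR4A1, -0.17 to 0.636 for NR4A2, -0.579 to 0.36 for NR4A3, -1.15 to 0.0785 for EGR3, -0.156 to 0.12 for NAB2 and -0.431 to 0.234 for JUNB. In Han ++ against Dorset EGR1 ranged from -1.76 to 0.0979. The Pearson r of EGR1 and FOS was -0.25 without D5 and W2 and ranged from -0.205 to 0.871 with single libraries left out. The counts for the 6 lists were run under alternatives after the data were seen. The cause of these changes was not tested. No paired analysis was possible because neither the labels nor the methods pair ewes between groups.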
